A study of Mus musculus with 12 samples.

Results

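The 8 mouse nuclear receptor genes described here were Rxra, Ppard, Thra, Thrb, Nr2f2, Nr6a1, Nr1d1 and Nr1d2. A deposited peak belonged to one of them when the authors' annotation gave that gene as its nearest, at any distance from the transcription start site (TSS). This gave 90 of the 76731 peaks in 12 lists: 24 of 10124 peaks of the retinoid X receptor (RXR) and 66 of 66607 peaks of histone H3 acetylated at lysine 27 (H3K27ac), which marks promoters and enhancers in use. The 12 chromatin immunoprecipitation libraries came from wild type E14 mouse embryonic stem (ES) cells, grown feeder-free with leukemia inhibitory factor, or from their neural derivatives. RXR and H3K27ac were each mapped in ES cells with vehicle (control; dimethylsulfoxide per the treatment protocol) and after 24 h with GW3965 (an agonist of the liver X receptors LXR), LG268 (an RXR agonist) or RA (all-trans retinoic acid, the ligand of the RAR receptors), each at 1 µM, with 1 library per group. Further RXR libraries came from cells on day 8 or day 16 of a neural differentiation by way of embryoid bodies, for which the protocol withdraws leukemia inhibitory factor and adds RA at 5 µM, with 2 libraries per day. The labels do not say whether the libraries of 1 day came from separate cultures, and differences between them may be technical.

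Nuclear receptors are transcription factors that bind hormones, vitamins or lipids and recognise short DNA half-sites, often as a pair of receptors. RXR is the shared partner: the thyroid hormone receptors encoded by Thra and Thrb, the fatty acid sensor PPARδ encoded by Ppard, LXR and RAR all bind DNA together with it. REV-ERBα and REV-ERBβ, encoded by Nr1d1 and Nr1d2, bind heme, act as repressors in the circadian clock and do not need RXR as a partner. COUP-TFII, encoded by Nr2f2, and germ cell nuclear factor, encoded by Nr6a1, are orphan receptors, so called because no hormone is established for them. Germ cell nuclear factor is known for silencing Pou5f1 when ES cells differentiate with RA, and COUP-TFII for its induction by RA and its part in patterning.

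The sequence just upstream of the start site is shown for 4 genes: Nr1d2, whose RXR site was found in the most lists, its paralogue Nr1d1, which had no RXR site, Nr6a1, and Thrb, whose window was the only one of the set that an H3K27ac peak reached. The windows hold the 250 bases before a RefSeq start site on GRCm38.p6, written 5′ to 3′ along the gene's strand. Capitals mark AGGTCA, the half-site that many of these receptors recognise. Positions within a window are counted back from the start site.
Nr1d2, chr14:18239107-18239356, minus strand: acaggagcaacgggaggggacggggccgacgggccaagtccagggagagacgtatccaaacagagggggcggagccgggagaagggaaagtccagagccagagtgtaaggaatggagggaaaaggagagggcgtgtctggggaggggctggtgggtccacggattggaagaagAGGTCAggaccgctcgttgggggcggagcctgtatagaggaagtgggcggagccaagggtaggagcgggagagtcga
Nr1d1, chr11:98775378-98775627, minus strand: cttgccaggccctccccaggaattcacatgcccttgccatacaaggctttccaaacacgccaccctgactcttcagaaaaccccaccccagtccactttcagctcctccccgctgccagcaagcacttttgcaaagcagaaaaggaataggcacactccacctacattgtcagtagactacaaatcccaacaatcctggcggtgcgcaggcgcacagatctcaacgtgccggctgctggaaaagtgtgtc
Nr6a1, chr2:38926462-38926711, minus strand: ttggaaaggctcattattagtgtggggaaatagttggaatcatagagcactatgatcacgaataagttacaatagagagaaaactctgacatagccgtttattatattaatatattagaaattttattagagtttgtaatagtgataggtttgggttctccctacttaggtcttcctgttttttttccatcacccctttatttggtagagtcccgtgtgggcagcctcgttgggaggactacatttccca
Thrb, chr14:17660710-17660959, plus strand: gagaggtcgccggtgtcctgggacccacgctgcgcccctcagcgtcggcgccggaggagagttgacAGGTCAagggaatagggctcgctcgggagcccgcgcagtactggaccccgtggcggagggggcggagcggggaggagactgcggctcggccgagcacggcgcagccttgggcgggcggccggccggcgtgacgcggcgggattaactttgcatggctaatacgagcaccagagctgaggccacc
The Nr1d2 window held the half-site at -77 to -72 and the Thrb window at -184 to -179. The Nr1d1 and Nr6a1 windows held none. Base composition differed widely, from 37.6% G and C for Nr6a1 to 71.6% for Thrb, with 63.6% for Nr1d2 and 54.8% for Nr1d1. RefSeq gave 10 such windows for 7 of the 8 genes, all but Thra, each extended by 50 bases past the start for the motif search. AGGTCA was found on either strand in 4 of these 10 (Nr1d2, Thrb, and the downstream alternative starts of Rxra and Nr6a1), and in 16.3% of all 32851 promoters of the same length. A direct repeat of 2 half-sites out of AGGTCA and the variants that read AGTTCA, that read GGGTCA or that read GGTTCA, with 0 to 5 bases between them on either strand, was found in 0 of the 10 and in 0.907% of all promoters. The E-box CACGTG, the element bound by the activators of the clock, was found in 1 of the 10, at the downstream start of Thrb, and in 7.15% of all. No RXR peak of any list touched one of the 10 windows, so these letters describe the promoters and not the bound sites.

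The RXR lists held 1089 peaks in the control, 940 with GW3965, 2089 with LG268, 1970 with RA, 1154 and 2044 on day 8 and 429 and 409 on day 16. The files give no read totals, so the depth behind each list is unknown. The GW3965 list stood apart from the other ES lists: it held 22.6% of the control peaks, against 72.5% with LG268 and 72.0% with RA.

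Most of these genes were the nearest gene of an RXR peak, at any distance, but most sites were in few of the lists. The 8 genes were chosen with earlier results of these data known, so a count above the share of all genes is not independent support. Of the 8 genes, 7 were the nearest gene of an RXR peak in at least 1 list and Nr1d1 was not; of all 14490 genes named in the 12 lists, 25.1% were. The 24 peaks fell on 11 distinct sites, 5 at Nr2f2 and 1 at each of the other 6 genes. Nr1d2, Nr6a1, Ppard and Thra each had a peak in the control list, so 4 of the 8 genes, where the share of all genes was 6.89%. The GW3965 list named 1 of them, Rxra (5.99% of all genes). With LG268 there were 5, Nr1d2, Nr6a1, Ppard, Nr2f2 and Thrb (12.4% of all genes), and with RA 3, Nr1d2, Ppard and Nr2f2 (11.9%). On day 8, replicate 1 named Nr2f2 alone (6.31% of all genes) and replicate 2 named Nr2f2, Nr1d2 and Nr6a1 (10.8%). Both day 16 lists named Nr1d2 alone (2.33% and 2.19% of all genes). Cut to the length of the shortest list, 409 peaks, the lists named 1, 1, 1, 2, 0, 0, 1 and 1 of the genes in the order given above, so control and LG268 were then level and RA was highest. With 1 library per ES group these counts are a description and carry no test.

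Each peak carries a score from the authors whose scale is not stated, so it was ranked within its own list. Of the 24 peaks, 13 ranked in the upper 50% of their list and 2 in the highest 10%, and the median peak had a higher score than 49.3% of its list, so the peaks were spread over the whole range of ranks. The scores ran from 2.95 at Thrb with LG268 to 31.00 at Nr1d2 with RA. None of the 24 was annotated as a satellite, simple repeat, rRNA or low-complexity element or lay on the mitochondrial chromosome. Such peaks numbered between 88 and 217 in each RXR list, and other classes of repeat were not counted. By location, 4 sites lay in introns, 1 in an exon and 6 between genes, and 2 (Nr1d2 and Nr6a1) lay in a CpG island. Of the 11, 4 lay within 10 kb of the start site, and 4, all upstream of Nr2f2, lay over 100 kb away. These locations were not counted over all RXR peaks, so they stand without a background. In ES cells 8 sites were seen and on a differentiation day 6, with 3 seen in both (Nr1d2, Nr6a1 and 1 site at Nr2f2). This split was not counted over all merged RXR regions, so it is not shown to be particular to these genes. Of the 11 sites, 5 were found in 1 list only, 2 in 2 lists, 3 in 3 lists and 1, at Nr1d2, in 6. Among the 5014 regions formed by merging all RXR peaks of the 8 lists, 43.3% had a peak in at least 2 lists, 23.7% in at least 3 and 5.27% in at least 6, against 6, 4 and 1 of the 11 sites.

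**Figure D1:**
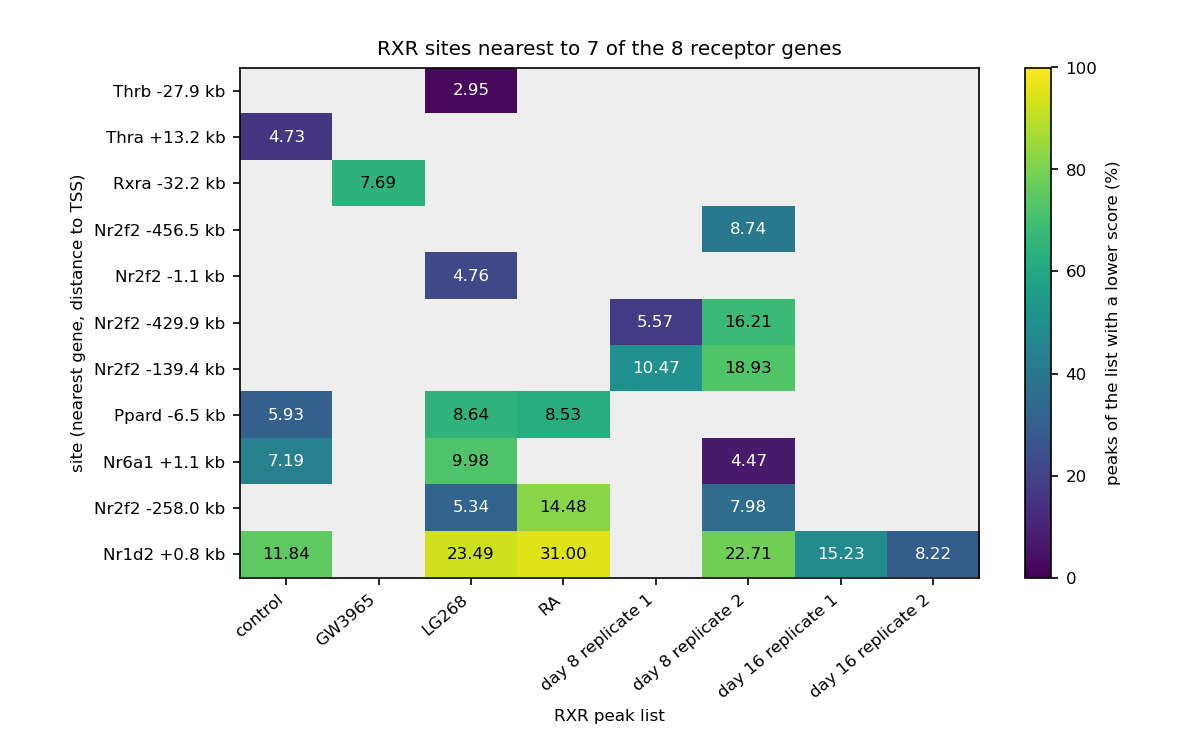
RXR sites nearest to the receptor genes. Each row is a site, named by its gene and its distance from the start site in kb, and each column is an RXR peak list; the number in a cell is the authors' score, the colour is the percent of peaks of that list with a lower score, and grey means no peak. The Nr1d2 row is filled in 6 of 8 columns, while the Thrb, Thra and Rxra rows have 1 filled cell each.

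Nr1d2 carried the RXR site that was found in the most lists. It lay 764 to 820 bp inside the gene in intron 1 of 7, within a CpG island (chr14:18238149-18238530). The control list gave it a score of 11.84 at rank 271 of 1089. With LG268 the score was 23.49 at rank 150 of 2089. With RA it was 31.00 at rank 97 of 1970. All 3 of these ES lists placed the peak in their upper part, above 75.0%, 92.8% and 95.1% of their other peaks, respectively, and the GW3965 list did not hold it. On day 8, replicate 2 gave a score of 22.71 at rank 415 of 2044, and replicate 1 had no peak there. On day 16, replicate 1 gave 15.23 at rank 214 of 429 and replicate 2 gave 8.22 at rank 279 of 409. The site was thus in 1 of the 2 day 8 libraries and in both day 16 libraries, where it stood in the middle or lower part of the list. The 6 peak centres lay within 56.5 bp of each other, with widths from 135 to 376 bp.

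Few regions were found in as many lists as the Nr1d2 site. Of the 5014 merged regions, 5 had a peak in exactly these 6 lists, and 184 had a peak in at least these 6. Outside satellites, simple repeats, rRNA, low-complexity elements and the mitochondrial chromosome the latter were 46. They included Dbp, a clock output gene, Klf9, a gene that responds to thyroid hormone, and Rarb, the RA receptor gene known for its own RA response. The lipid genes Scd2, Fasn and Srebf1 were also among them. Among the 184, the Nr1d2 site ranked 138 in the control list, 113 with LG268 and 69 with RA. It ranked 141 in day 8 replicate 2, and 156 and 167 in the day 16 replicates. So within these 184, most of them in such repeats or mitochondrial, it stood above 62.5% with RA and lower in each other list. It stood above 25.0% in the control, 38.6% with LG268, 21.7% in day 8 replicate 2, and 14.7% and 8.70% in the day 16 replicates. Its rank among the 46 was not worked out.

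**Figure D2:**
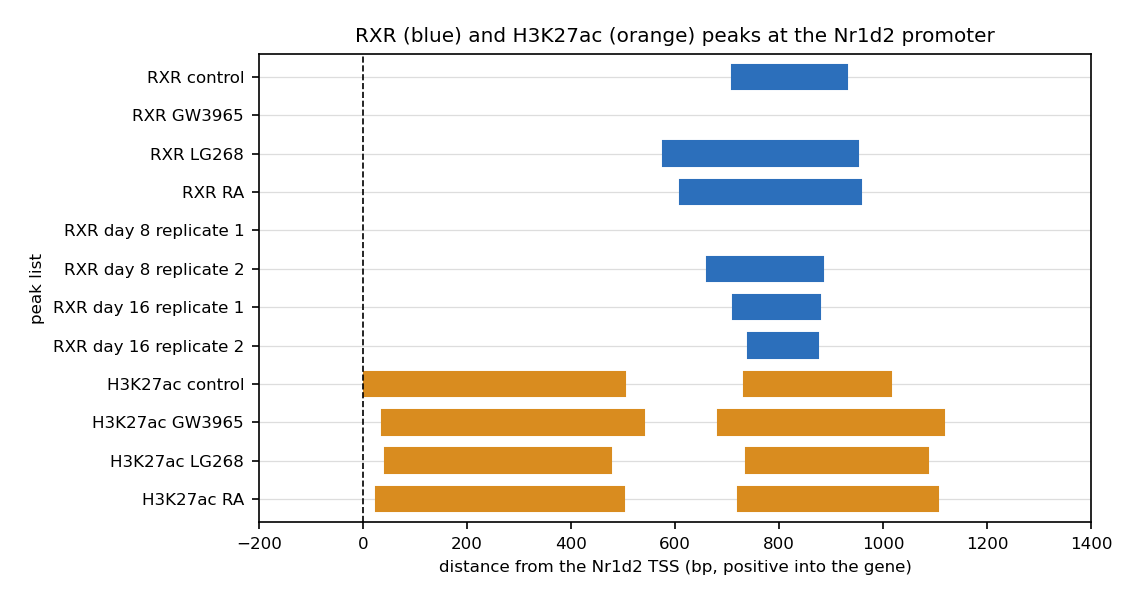
Peaks at the start of Nr1d2. The horizontal axis is the distance from the start site in bp, positive into the gene, and each bar is a deposited peak of the list named on the left (RXR in blue, H3K27ac in orange). The 6 RXR peaks stack over the inner of the H3K27ac peaks, whose centres lie 874 to 913 bp inside the gene, and the RXR rows of GW3965 and day 8 replicate 1 are empty.

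The chromatin around this site was marked by acetylation in all 4 ES lists. An outer H3K27ac peak near the start of Nr1d2 scored 38.79 at rank 674 of 21418 in the control and 26.94 at rank 1355 of 17759 with GW3965. It scored 20.91 at rank 771 of 12472 with LG268 and 26.62 at rank 547 of 14958 with RA. In each list this peak stood above at least 92.4% of the others. An inner peak covered part of the RXR site and was much lower in its list. Its scores were 5.63 in the control (rank 14747), 10.06 with GW3965 (rank 7134), 3.56 with LG268 (rank 11296) and 4.51 with RA (rank 12203). The inner peak stood highest in its list with GW3965, the treatment without an RXR peak there. Whether its rank was linked to that absence was not tested. The RXR peak and the inner H3K27ac peak of the same treatment shared 198 bp in the control, 215 bp with LG268 and 237 bp with RA.

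Nr1d1, the other REV-ERB gene, had no RXR peak named for it in any of the 8 lists. Its gene body overlaps that of Thra by 1075 bp where the 2 genes run into each other at their 3′ ends. The RXR site assigned to Thra lay 12808 bp from Nr1d1. A day 8 replicate 2 peak that the authors named for Msl1 lay nearer, upstream of the Nr1d1 start (chr11:98786940-98787077). H3K27ac was nevertheless present at Nr1d1 in all 4 ES lists. The peak within 1 kb of its start scored 13.07 (rank 6588) in the control, 5.78 (rank 12128) with GW3965, 5.04 (rank 9206) with LG268 and 5.32 (rank 10912) with RA. The GW3965 peak, 811 bp inside the gene, did not overlap the other 3, whose centres lay 128 to 253 bp from the start. Another peak about 8.0 kb upstream was also in all 4 lists, with scores of 8.10, 10.53, 4.03 and 3.13 in the same order.

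At Nr6a1, RXR was found close to the start in ES cells and on day 8. The site lay 1119 to 1168 bp inside the gene, in intron 1 of 10 and in a CpG island (chr2:38925187-38925469). It scored 7.19 in the control (rank 610 of 1089), 9.98 with LG268 (rank 576 of 2089) and 4.47 in day 8 replicate 2 (rank 1818 of 2044). The control and day 8 peaks stood below the middle of their lists and the LG268 peak above 72.3% of its list. The GW3965, RA, day 8 replicate 1 and both day 16 lists had no peak there. This set of lists was shared by 8 of the 5014 merged regions. Among the 441 regions with a peak in at least these 3 lists, the site ranked 357, 313 and 428.

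The acetylated stretch at Nr6a1 was called at different places with different treatments. In the control, H3K27ac peaks centred 130 bp inside the gene (score 5.82, rank 14404 of 21418) and 565 bp upstream (3.90, rank 18894). With GW3965 the only peak centred 188 bp inside (8.14, rank 8907 of 17759). With LG268 it centred 777 bp inside (5.29, rank 8802 of 12472), and with RA 862 bp inside (14.22, rank 3051 of 14958). The control and GW3965 peaks near the start thus had no counterpart with LG268 or RA, whose peaks lay closer to the RXR site. The RA peak reached the RXR site, by 100 bp of the control RXR peak and 170 bp of the LG268 RXR peak, although no RXR peak was called there with RA. The H3K27ac peak nearest to the RXR peak of its own treatment was 94 bp away with LG268 and 821 bp away in the control.

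**Figure D3:**
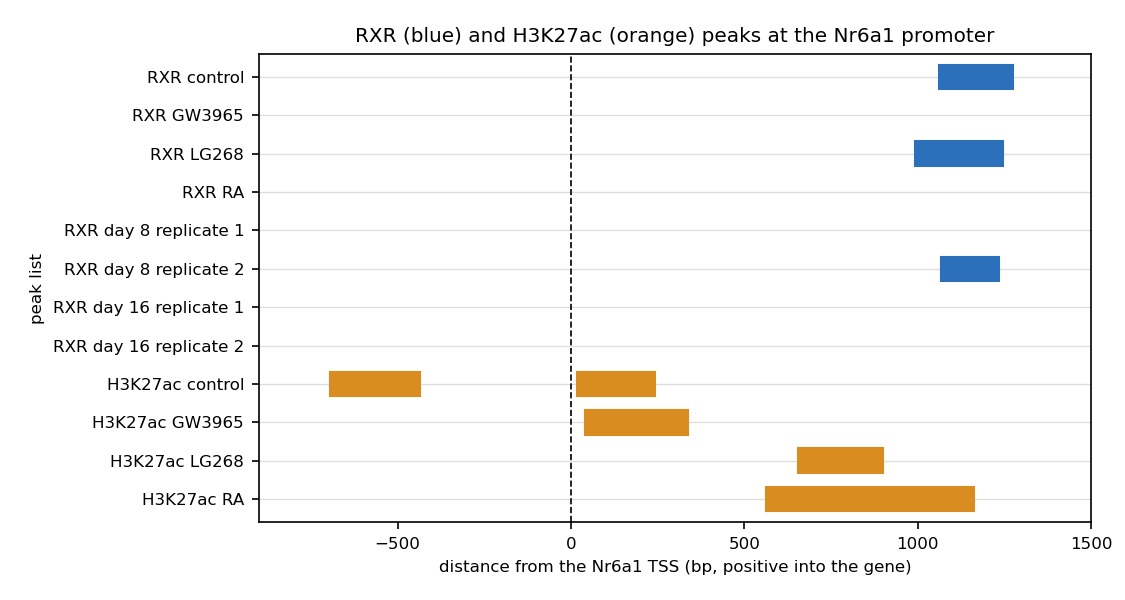
Peaks at the start of Nr6a1. The horizontal axis is the distance from the start site in bp, positive into the gene, and each bar is a deposited peak (RXR in blue, H3K27ac in orange). The control and GW3965 acetylation peaks sit by the start, centred at 130 and 188 bp, while the LG268 and RA peaks sit further in, at 777 and 862 bp, and only the RA bar reaches the span of the RXR peaks.

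Nr2f2 had the most RXR sites, and none of them was in the control or GW3965 lists. Of its 5 sites, 4 lay in the long gene-poor stretch upstream and 1 within the gene. The site 258.0 kb upstream (chr7:70624520-70624880) was found in ES cells with LG268 and with RA, and on day 8. Its score was 5.34 with LG268 (rank 1423 of 2089), 14.48 with RA (rank 351 of 1970) and 7.98 in day 8 replicate 2 (rank 1231 of 2044). It stood above 82.1% of the RA list but only above 31.8% of the LG268 list and 35.9% of the day 8 list. Among the 606 regions with a peak in at least these 3 lists, it ranked 549 with LG268, 293 with RA and 498 on day 8.

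The other distal sites of Nr2f2 were seen only on day 8. The site 139.4 kb upstream (chr7:70505981-70506216) was in both replicates, with scores of 10.47 (rank 535 of 1154) and 18.93 (rank 526 of 2044). The site 429.9 kb upstream (chr7:70796447-70796797) was also in both, with 5.57 (rank 891) and 16.21 (rank 622). The site 456.5 kb upstream (chr7:70823169-70823370) was in replicate 2 only, with 8.74 (rank 1145). The sites shared by both replicates stood higher in the list of replicate 2, above 73.0% and 68.1% of its peaks, than in that of replicate 1, above 50.4% and 17.9%. Neither day 16 list held any of them. Of the day 8 peaks at all 8 genes, 2 of 2 in replicate 1 were found in replicate 2 (85.9% of its whole list) and 2 of 6 in replicate 2 were found in replicate 1 (48.0%). A region found in both day 8 lists and no other was common: 354 of the 5014 merged regions had that pattern, and 656 were in day 8 replicate 2 alone.

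The site within Nr2f2 was found with LG268 only (chr7:70361622-70361823, score 4.76, rank 1621 of 2089). It lay 1129 bp upstream of the nearest annotated start, and 5024 bp inside the gene as counted from the gene's upstream start, in intron 1 of 2 of the longer transcript. Regions with a peak in the LG268 list alone numbered 729. The assignment of the 4 distal sites to Nr2f2 rests on distance alone and on the authors' gene set. In RefSeq on GRCm38.p6 the predicted protein-coding gene Gm44812 lies nearer to each of them than Nr2f2. It is 2941 bp from the site 139.4 kb upstream and 39559, 211486 and 238208 bp from the other 3. Nearer still to those 3 are lncRNA genes. Gm35894 is 37078 bp from the site 258.0 kb upstream, and Gm39032 is 5313 and 11718 bp from the sites 429.9 and 456.5 kb upstream.

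Of the 5 Nr2f2 sites, 2 were touched by an H3K27ac peak, each in 1 list, and both were sites seen in ES cells. The share of all merged RXR regions touched in any list was not counted. With RA an H3K27ac peak (chr7:70624737-70625197, score 7.63, rank 7651 of 14958) overlapped the RA RXR peak 258.0 kb upstream by 144 bp. The nearest H3K27ac peak of any other list lay at least 59036 bp from that site. The GW3965 list had a peak 964 bp upstream of the nearest start (4.53, rank 14397) that shared 65 bp with the intragenic LG268 RXR site. Nearest to the site 139.4 kb upstream was a control peak at 8845 bp (score 2.57, rank 21078), and no list had one over that site or over the sites 429.9 and 456.5 kb upstream. H3K27ac was not mapped on the differentiation days, so the day 8 sites have no matched acetylation list.

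**Figure D4:**
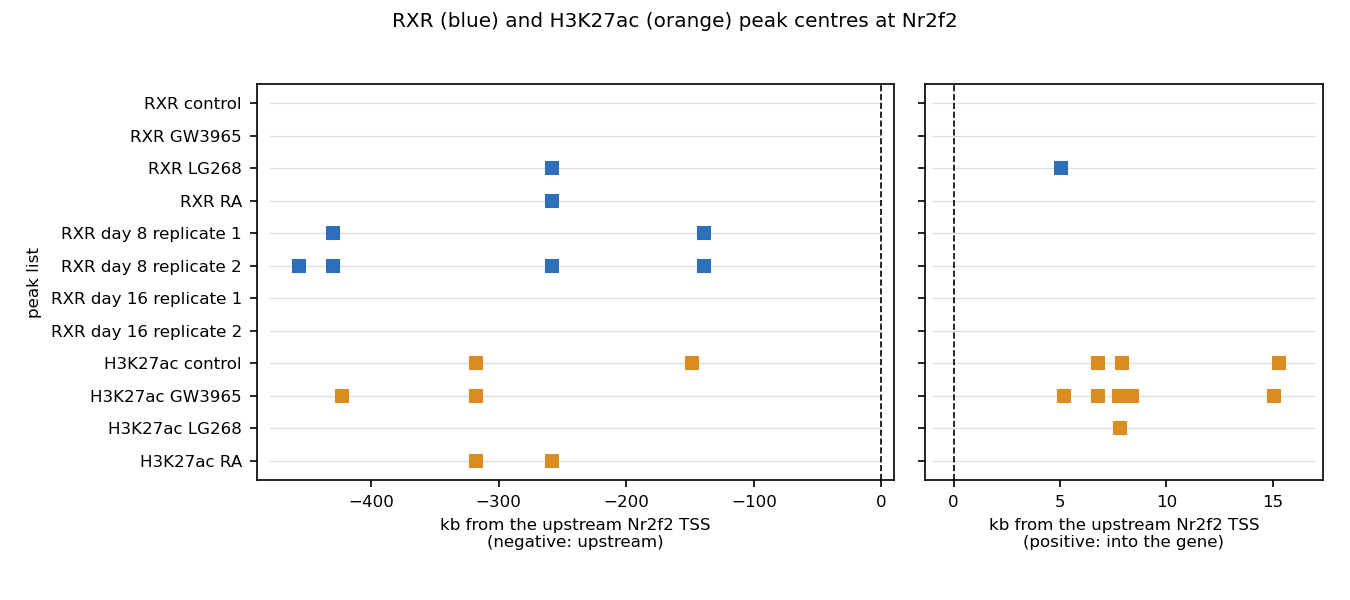
Peak centres around Nr2f2. The horizontal axes give the distance from the gene's upstream start in kb, with the distal upstream stretch on the left and the gene on the right at a larger scale, and each square is the centre of a deposited peak (RXR in blue, H3K27ac in orange). Both RXR rows of day 8 hold the sites 139.4 and 429.9 kb upstream, and the RA rows hold an RXR and an H3K27ac square at 258.0 kb; H3K27ac peaks outside the plotted ranges are not shown.

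The thyroid hormone receptor genes each had 1 RXR site, in 1 list, low in its ranks. The Thra site lay in intron 2 of 8, 13152 bp from the start (chr11:98754926-98755124), and was in the control list with a score of 4.73 (rank 916 of 1089). The LG268 and RA lists, though longer, did not hold it, and 155 of the 5014 regions were likewise in the control list alone. The Thrb site lay between genes, 27902 bp upstream (chr14:17632967-17633149), and was in the LG268 list with a score of 2.95 (rank 1973 of 2089). Only 2.58% of the LG268 peaks scored lower, and the lncRNA gene Gm32269 lies 316 bp from it. Thrb and Nr1d2 are neighbours on chromosome 14, with 163958 bp between them.

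Acetylation differed between the start sites of these 2 thyroid hormone receptor genes. The Thra promoter carried H3K27ac in all 4 lists, with 17.36 in the control (rank 4518), 10.96 with GW3965 (rank 6476), 9.41 with LG268 (rank 4459) and 8.99 with RA (rank 6296). The Thrb promoter carried it in the control (3.75, rank 19194) and with GW3965 (10.28, rank 6958) and had no peak in the LG268 and RA lists. The control and GW3965 peaks at Thrb ended inside the window printed above, covering its first 97 and 108 bases, which include the AGGTCA half-site. No H3K27ac peak touched the RXR site of either gene. The nearest lay 4408 bp away in the control for Thra, and 27239 bp away with GW3965 for Thrb.

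Rxra, the gene of RXRα itself, had its RXR site in the GW3965 list alone. It lay between genes, 32211 bp upstream (chr2:27644892-27645088), with a score of 7.69 at rank 327 of 940, above 64.8% of that list. Regions in the GW3965 list alone numbered 588. The nearest H3K27ac peak of any list lay 31289 bp away. The Rxra promoter carried H3K27ac in all 4 lists, with its highest peak within 1 kb at 18.67 (rank 3988) in the control, 17.35 (rank 3371) with GW3965, 6.01 (rank 7747) with LG268 and 11.33 (rank 4547) with RA. The control list held 4 further Rxra peaks that no ligand list held. Of these, 3 were inside the gene, in introns 2 and 4 of 9 (scores 3.45, 7.05 and 9.18), and 1 was 73990 bp upstream (5.52). Absence from a ligand list was common for control peaks beyond 1 kb of a start site. Of all such peaks the GW3965 list held 47.7%, that of LG268 26.3% and that of RA 33.8%. The share absent from every ligand list was not counted. The control list is also the longest. The Rxra peaks scoring 3.45 and 5.52, at ranks 19741 and 14925, fell outside its highest 12472.

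At Ppard, RXR was found in 3 of the 4 ES lists and on neither day. The site lay 6463 to 6501 bp upstream of the start, in exon 9 of 11 of the neighbouring gene Def6 (chr17:28226159-28226411). It scored 5.93 in the control (rank 743 of 1089), 8.64 with LG268 (rank 724 of 2089) and 8.53 with RA (rank 738 of 1970). Its place was similar with LG268 and RA, above 65.1% and 62.3% of the list, and lower in the control, above 30.8%. In all, 182 regions shared exactly this pattern, and among the 667 regions with a peak in at least these 3 lists it ranked 544, 460 and 461. No H3K27ac peak covered it. The nearest, in introns and exons of Def6 about 8.8 kb upstream of Ppard, lay 2053 to 2088 bp away in the control, GW3965 and RA lists, with scores of 5.52, 4.91 and 8.11. The Ppard promoter had H3K27ac in the control (11.30, rank 7763) and with GW3965 (7.98, rank 9047), and LG268 and RA had no peak within 1 kb.

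The next comparison asked whether the sites of the untreated cells were found again after treatment or differentiation. Of the 4 control sites (Nr1d2, Nr6a1, Ppard and Thra), the GW3965 list held 0, where it held 22.6% of all control RXR peaks. With LG268 3 were found (72.5% of all control peaks) and with RA 2 (72.0%). On day 8, 0 were found in replicate 1 (34.2%) and 2 in replicate 2 (46.5%). Each day 16 list held 1, the Nr1d2 site (22.6% and 20.3%). With 4 sites and 1 library per ES group, no test was made, and depth and treatment cannot be told apart as sources of a missing site.

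The RXR peaks were next set against the acetylation peaks of the same treatment. In the control 1 of 4 overlapped an H3K27ac peak by at least 1 bp (32.0% of all RXR peaks of that list), the Nr1d2 site. With GW3965 it was 0 of 1 (18.2%). With LG268 it was 1 of 6 (24.5%), again Nr1d2, and with RA 2 of 3 (27.8%), Nr1d2 and the Nr2f2 site 258.0 kb upstream. Over the 4 H3K27ac lists, whatever the treatment, 4 of the 11 sites were touched: those at Nr1d2, Nr6a1 and 2 at Nr2f2. The share of all merged RXR regions touched in this pooled way was not counted, and the shares above, for peaks of the same treatment, do not stand in for it.

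H3K27ac was called at most of these genes in every ES list. All 8 had a peak in the control (88.4% of all genes) and with GW3965 (80.7%). With LG268 6 had one (65.3%), all but Ppard and Thrb, and with RA 7 (72.8%), all but Thrb. The Nr1d2 promoter had the highest peak of the set in each list, and Nr6a1 had the next highest with RA. Within 1 kb of the start, Rxra, Thra, Nr6a1, Nr1d1 and Nr1d2 had a peak in all 4 lists. Ppard, Thrb and Nr2f2 had one in the control and with GW3965 and none with LG268 or RA. Neither pattern was counted over all genes. Of all control H3K27ac peaks within 1 kb of a start site, the LG268 list held 66.5% and the RA list 75.4%. Such absences were thus not confined to these genes. At Nr2f2 the promoter peak scored 6.57 (rank 12967) in the control and 7.30 (rank 9859) with GW3965, in the lower 50% of each list.

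**Figure D5:**
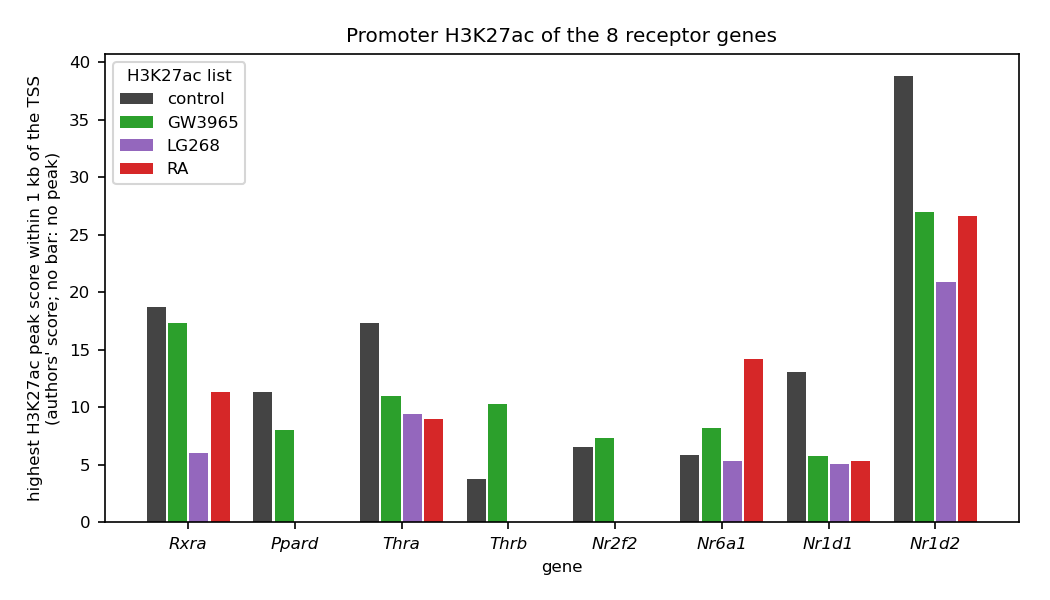
Promoter acetylation of the 8 receptor genes. Bars give the authors' score of the highest H3K27ac peak within 1 kb of the start site in each of the 4 ES lists (1 library each, so no error bar); a missing bar means no peak, and scores of different lists have no stated common scale. Nr1d2 has the highest bar in each list, and Ppard, Thrb and Nr2f2 lack the LG268 and RA bars.

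The number of acetylation peaks assigned to the 8 genes was 24 in the control list, 21 with GW3965, 10 with LG268 and 11 with RA, in lists of 21418, 17759, 12472 and 14958 peaks. Cut to the length of the shortest list, they were 8, 11, 10 and 9, so the control went from the highest count to the lowest. Merged, they gave 34 regions, of which 5 were in all 4 lists: 2 at Nr1d2, and 1 each at the promoters of Rxra and Thra and upstream of Nr1d1. In 1 list only were 17, 10 of them in the control, 6 with GW3965, 0 with LG268 and 1 with RA, the last being the distal Nr2f2 peak. The same counts were not made over all H3K27ac regions, and the control list is the longest, so they stand without a background. Nr2f2 accounted for 14 of the 34 regions, with 7, 10, 2 and 2 peaks in the lists in the order above. The GW3965 list held 13 of the 24 control peaks again (68.8% of all control H3K27ac peaks), that of LG268 7 (51.8%) and that of RA 8 (60.2%). Within 1 kb of a start site it was 8, 5 and 5 of 10 (80.9%, 66.5% and 75.4% of all such peaks), and further away 5, 2 and 3 of 14 (47.7%, 26.3% and 33.8%). For these genes as for the whole lists, the share found in each ligand list was lower beyond 1 kb than within it.

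Other receptor genes and genes of the pathways these receptors serve were counted in the same lists. Of 41 other nuclear receptor genes, 30 were named in the files and 15 had an RXR peak within 100 kb of the start in at least 1 list, where 22.0% of all genes did. They were Esr1, Esrrb, Esrrg, Nr0b2, Nr1h4, Nr2c1, Nr2c2, Nr2f1, Nr3c1, Nr4a3, Pparg, Rara, Rarb, Rarg and Rorb. Within the list of day 8 replicate 2, the highest peaks among them were at the genes of the RA receptors: Rarb at 136.72 (rank 16 of 2044), Rara at 60.29 (rank 93) and Rarg at 46.05 (rank 153). By list the 30 genes gave 5 in the control (5.94% of all genes), 3 with GW3965 (5.05%), 6 with LG268 (10.9%) and 8 with RA (10.3%). On day 8 they gave 5 (4.64%) and 11 (8.84%), and on day 16 2 in each replicate (1.59% and 1.46%), Esr1 and Rarb.

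The 16 clock gene symbols searched besides the REV-ERB genes included Arntl and Bmal1, which are names of the same gene. Of these symbols, 14 were named and 7 had an RXR peak within 100 kb in at least 1 list (22.0% of all genes): Arntl, Cry1, Cry2, Dbp, Hlf, Per1 and Per2. By list the counts were 3 in the control (5.94% of all genes), 1 with GW3965 (5.05%), 2 with LG268 (10.9%), 4 with RA (10.3%), 1 and 4 on day 8 (4.64% and 8.84%) and 1 in each day 16 list (1.59% and 1.46%). The counts of 1 and 2 among 14 genes lie near the share of all genes in the GW3965, LG268 and day 8 replicate 1 lists. The intronic peak of Dbp, a clock output factor, was in 7 lists, with scores of 33.30 in the control, 19.37 with GW3965, 23.25 with LG268, 20.08 with RA, 27.66 in day 8 replicate 2 and 18.88 and 12.26 on day 16. Like the Nr1d2 site, it was absent from day 8 replicate 1. Per1, a clock repressor, had a promoter peak at rank 657 of 1089 in the control, 787 of 2089 with LG268, 827 of 1970 with RA and 1064 of 2044 in day 8 replicate 2. Cry1, another, had an intronic peak at rank 815 of 1154 and 1329 of 2044 on day 8.

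Of 12 genes of thyroid hormone metabolism and response, 7 were named and 2 had an RXR peak within 100 kb in at least 1 list, a share near the 22.0% of all genes. Klf9, a transcription factor gene induced by thyroid hormone, had one about 5.2 kb upstream in every list but day 8 replicate 1. It scored 15.07 in the control, 8.83 with GW3965, 26.48 with LG268, 13.14 with RA, 10.30 in day 8 replicate 2 and 6.42 and 7.26 on day 16. Thrsp, a lipogenic gene that responds to thyroid hormone, had one in the control list alone, at 3.10. Klf9 thus held RXR in 7 lists, and Thra and Thrb in 1 each.

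The pattern over the 4 ES lists was common for some of the genes and rare for others. Of the 2996 genes with an RXR peak in an ES list, 420 had one in exactly the control, LG268 and RA lists, as Ppard and Nr1d2 did. The Nr2f2 pattern, LG268 and RA only, was shared with 351, and that of Nr6a1, control and LG268 only, with 76. These numbers include the named genes themselves. The single-list patterns of Thrb (LG268), Rxra (GW3965) and Thra (control) covered 575, 419 and 131 genes.

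The tissue label was checked on acetylation, since RXR peaks do not mark a cell type. Of 10 ES cell markers, 4 had an H3K27ac peak within 1 kb of the start in the control (Pou5f1, Sox2, Utf1 and Fgf4), 5 with GW3965, 3 with LG268 and 1 with RA. Within 10 kb the counts were 5, 6, 4 and 4. Nanog had a peak in all 4 lists between 1 and 10 kb away and none nearer, and Esrrb, Tdgf1 and Dppa5a had none within 10 kb in any list. Of 20 markers of neural, endodermal, mesodermal, trophoblast and fibroblast cells, 5, 2, 1 and 3 had a promoter peak in the same order, among them Mapt in all 4. The share of all genes with a peak at these distances was not counted, so the counts cannot decide whether the label holds. Over the markers with a promoter peak, the median of the highest scores was 7.88, 8.26, 4.72 and 4.85 for the ES markers. For the others it was 7.36, 9.65, 13.92 and 5.21. The 4.85 with RA is Utf1 alone, the 13.92 with LG268 is Mapt alone, and the 9.65 with GW3965 rests on Pax6 and Mapt. The LG268 and RA lists, which had the fewest ES markers with a promoter peak, also lacked the Ppard, Thrb and Nr2f2 promoter peaks and are the shortest. The part of cell state or list length in those absences was not tested. The differentiated cells could not be checked in this way.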

How the data were processed

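RXR and H3K27ac were mapped by chromatin immunoprecipitation and sequencing in 12 libraries, 1 peak list each, in 10 groups taken from the labels. Tools named by the submitters' processing notes are MACS2 2.0.10, HOMER 4.2 and BWA 0.6.0; of builds they mention mm10 and mm9, neither tied to a step, and per the file headers the deposited peaks were annotated on mm10. The deposited values used were each peak's score, given by the authors on a scale that is not stated, and its distance to the nearest TSS with the gene so named, per the file headers. Peaks were called per library.

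Here, peaks of the 8 genes were merged to sites where they overlapped by at least 1 bp and ranked by score within their list, ties sharing the best rank. Shares of whole lists count peaks with an overlap of at least 1 bp. Background shares count all 14490 genes named in the 12 lists. With 1 library per ES group no test was made between treatments, and with 2 per day an exact test could not pass the threshold. The depth per library is unknown, so a site missing from a list may lie below its detection limit. Named were the 8 genes with every RXR site, the highest H3K27ac peak of each gene and list, those touching an RXR site or found in the control only or a ligand only as counts with examples, and of the other receptor, clock and thyroid hormone genes those with an RXR peak within 100 kb, with values for the highest 3. Further Klf9, Dbp and Thrsp values, and the genes listed beside Nr1d2, were chosen after their values were seen, as were the E-box and the 10 kb marker window. The 8 genes and all gene lists were chosen with earlier results of these data known. Promoter sequences came from RefSeq on GRCm38.p6, whose table held 7 of the 8 genes, and gene extents from RefSeq on the same assembly. No genome was used here, so the sequences under the RXR peaks are not printed. Alternatives were other distance windows, a stricter threshold, lists of equal length, other overlap rules, assignment by position, repeats left out and each day replicate left out. The overlap, merging and motif steps were tested on simulated data. Scripts used matplotlib 3.10.9, pandas 2.3.3, scipy 1.17.1 and numpy 2.4.6 under Python 3.11.15.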

Additional observations from a re-analysis of the deposited data

How the results depend on the processing

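Counts are given in the order control, GW3965, LG268, RA, day 8 replicates 1 and 2, day 16 replicates 1 and 2. Of 228 values under alternatives, 160 stayed within 1.5 times the reported count and 68 moved. Merging within 1 kb and leaving out repeats moved none of the RXR site and peak counts by that much. Assignment by position also gave 11 RXR sites, but different ones: the 4 distal Nr2f2 sites were left out and 4 places with other deposited names came in, so that day 8 replicate 1 named Nr6a1 in place of Nr2f2.

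With RXR lists cut to the 409 highest peaks, RXR peaks of the 8 genes numbered 1, 1, 1, 2, 0, 0, 1 and 1 instead of 4, 1, 6, 3, 2, 6, 1 and 1, and genes with a peak likewise 1, 1, 1, 2, 0, 0, 1 and 1 instead of 4, 1, 5, 3, 1, 3, 1 and 1. With the upper 50% of each list, peaks numbered 1, 1, 3, 3, 1, 3, 1 and 0 and genes 1, 1, 3, 3, 1, 2, 1 and 0. Within 10 kb, both numbered 3, 0, 4, 2, 0, 2, 1 and 1, and within 100 kb the day 8 peaks numbered 0 and 2, with 0 genes in replicate 1. The 11 sites became 7 in the upper 50%, 4 within 10 kb and 7 within 100 kb. Of the control sites, lists of equal length kept 1 with LG268, 1 with RA and 0 in day 8 replicate 2; the upper 50% kept 1, 1 and 1, and 0 in day 16 replicate 2. Sites in both day 8 libraries numbered 2, and 1 with 50% reciprocal overlap, 0 with equal length and 1 in the upper 50%; with 1 replicate left out they ranged from 2 to 6, the 6 being those of replicate 2 without replicate 1. The day 16 site was lost in the upper 50% (0) and ranged from 1 to 1 with a replicate left out. RXR peaks covered by H3K27ac fell with RA to 1 under 50% reciprocal overlap and under centres within 200 bp, in the control to 0 with H3K27ac lists of equal length, and to 0 in the control, LG268 and RA lists with the upper 50%.

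H3K27ac peaks numbered 8, 11, 10 and 9 in the 4 ES lists when cut to 12472 peaks, which turned their order, 33, 18 and 17 with GW3965, LG268 and RA by position, and 6, 6, 2 and 5 in the upper 50%. Control H3K27ac peaks found with GW3965 and RA numbered 5 and 4 with equal length, and 3, 2 and 3 with GW3965, LG268 and RA in the upper 50%. Nuclear receptor genes with a peak, all 49, numbered 9, 4, 11, 10, 5, 13, 3 and 3. With equal length they numbered 5 in the control, 4 with LG268, 5 with RA and 2 and 3 on day 8. In the upper 50% they numbered 7 with LG268 and 6 in day 8 replicate 2. They numbered 8 in day 8 replicate 1 at any distance and 2 with GW3965 within 10 kb.

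No paired analysis was possible because no result comes from a test and the labels do not say that a replicate number marks a shared culture. Peak calls without read totals set the limits: 9 of the 11 sites, all but that of Rxra and the Nr2f2 site 139.4 kb upstream, had a peak outside the upper 50% in at least 1 list, and the cause of any site's absence from a list was not tested.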

Other observations

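Inside Nr6a1 further RXR peaks carried the names of microRNA genes that lie within it, and so were not counted above. A peak in intron 3 of 10, named for Mir181a-2, was in both day 8 libraries, with a score of 8.76 (rank 641 of 1154) in replicate 1 and 24.67 (rank 397 of 2044) in replicate 2, and in no other RXR list. In intron 2 of 10, 2 different places were named for Mir181b-2: one in the LG268 list (5.80, rank 1253 of 2089) and one in day 8 replicate 1 (8.76, rank 641 of 1154). By position, then, Nr6a1 held RXR in both day 8 libraries, where by the deposited name it held it in replicate 2 only. A peak named for Msl1 lay within 50 kb of Thra and Nr1d1, upstream of the Nr1d1 start, in day 8 replicate 2 (8.74, rank 1145 of 2044).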
